A study of Arabidopsis thaliana with 9 samples.

Results

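The transcripts described are those of 46 genes of the AP2/ERF superfamily of plant transcription factors, out of 33871 loci in the deposited table. They comprise 27 ERF genes of groups VII, VIII, IX and X, 6 cytokinin response factor genes (CRF) and 13 DREB genes, among them CBF1 to CBF3. Members were chosen by gene identifier from knowledge of the family and not by a rule on their measured values. Earlier results of these data were, however, known when they were chosen. Each was read at the assembled locus that lists its identifier. Where several loci on the gene's strand did, the longest under 50000 bp was taken.

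The libraries were made from Arabidopsis thaliana inflorescences, 3 in each of 3 groups, and the labels call them biological replicates. All plants were of the genotype 35S:AP1-GR ap1,cal, 5 weeks old and grown in soil at 22 °C in long days. In ap1 cal mutants the shoot tip forms a mass of inflorescence-like meristems. AP1-GR is the floral regulator APETALA1 joined to a glucocorticoid receptor domain, so that the steroid dexamethasone lets it enter the nucleus, and the 35S promoter drives it broadly rather than in its own domain. The groups were untreated, cycloheximide for 2 h, and dexamethasone with cycloheximide for 2 h. Cycloheximide blocks translation elongation and served as the mock treatment, so the second comparison asks which transcripts respond to AP1-GR while protein synthesis is blocked. No library of dexamethasone alone or of a handled, solvent-treated control was analysed here. An effect of handling cannot be told apart from that of cycloheximide, nor an effect of dexamethasone itself from that of AP1-GR.

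AP2/ERF proteins bind DNA through 1 conserved domain. ERF proteins typically bind the GCC box of defence genes and act in ethylene, jasmonate and stress responses, while DREB proteins bind the dehydration-responsive element and act in cold, drought and heat. Many members are activators, and group VIII members carry an EAR motif with which they repress transcription. Many of these genes are known as early response genes, whose transcripts are short-lived and appear quickly after a stimulus.

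Levels are FPKM, fragments per length of locus and per library total, which allows levels of different genes to be set side by side. Fold changes are differences of log2(FPKM + 1) with their SE, which understate the change of genes with low FPKM. A change was called where limma's adjusted p over all 19569 tested loci, those with a mean of at least 1 FPKM, was under 0.05. Of the 46 members 39 were tested. The untested 7 were ERF15, ERF10, CBF2, CBF3, DDF2, RAP2.1 and RAP2.9, with a highest value of 3.07 FPKM in any library. Another 7 members, ERF1, ABR1, ERF71, CRF4, CBF1, DDF1 and CEJ1, were below 1 FPKM untreated and passed the filter through the treated groups, so a difference in them is in part built in. Read totals are not given in the sources used here, and steps between values at short loci gave relative depths from 0.364 to 1. The lowest were those of dexamethasone + cycloheximide replicates 2 and 3 (0.364 and 0.389), and the highest that of untreated replicate 2. Of 8 inflorescence meristem markers 8 were tested, with untreated means from 6.87 FPKM in WUS to 426 in SOC1. After cycloheximide 3 were higher, 3 lower and 2 not called, where 26.5% of all tested loci rose and 28.2% fell. With dexamethasone TFL1 alone was called, where 1.78% of loci fell. Its mean was 142 FPKM with cycloheximide and 38.6 with dexamethasone + cycloheximide (-1.85 ± 0.155, limma, adjusted p = 0.00279). The 4 root markers reached at most 0.0990 FPKM, RHD6 was at 0 in all libraries, and the 3 pollen markers reached at most 0.488 FPKM. Among the 3 seed markers OLEO1 and CRA1 stayed at or below 0.0459 FPKM, while SESA1, a seed storage protein gene, was at 0.857 to 2.33 FPKM untreated and 97.8 to 380 in the treated libraries. Any part of SESA1-expressing cells in the results was not tested. In bulk tissue, fewer cells of a type and less RNA per cell cannot be told apart.

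Upstream sequences are shown for members on which the results turn: ERF2 and its paralog ERF1A (listed by RefSeq as ERF-1), ERF11, and ERF1 and ERF71, the members called with dexamethasone. Each is the 250 bases before the annotated gene start, from RefSeq's TAIR10.1 annotation, whose nuclear coordinates are those of TAIR10, written 5′ to 3′ on the gene's strand. Capitals mark matches on either strand to the GCC box (GCCGCC), the dehydration-responsive element core (CCGAC), the W-box core (TTGAC), the G-box (CACGTG) or the CGCG box (CGCGT), and no 2 matches overlap in these 5 sequences.
ERF2 (chr5:19172957-19173206, minus strand): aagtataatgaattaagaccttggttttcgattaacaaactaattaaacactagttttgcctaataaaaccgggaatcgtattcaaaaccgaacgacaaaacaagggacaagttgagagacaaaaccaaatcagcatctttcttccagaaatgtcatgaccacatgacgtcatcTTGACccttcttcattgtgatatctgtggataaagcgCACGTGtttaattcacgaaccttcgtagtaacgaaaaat
ERF1A (chr4:9758953-9759202, plus strand): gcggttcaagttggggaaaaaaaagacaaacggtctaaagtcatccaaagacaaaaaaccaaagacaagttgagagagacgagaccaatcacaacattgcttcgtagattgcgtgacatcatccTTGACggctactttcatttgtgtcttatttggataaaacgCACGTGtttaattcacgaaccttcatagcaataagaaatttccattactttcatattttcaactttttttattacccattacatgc
ERF11 (chr1:9956981-9957230, minus strand): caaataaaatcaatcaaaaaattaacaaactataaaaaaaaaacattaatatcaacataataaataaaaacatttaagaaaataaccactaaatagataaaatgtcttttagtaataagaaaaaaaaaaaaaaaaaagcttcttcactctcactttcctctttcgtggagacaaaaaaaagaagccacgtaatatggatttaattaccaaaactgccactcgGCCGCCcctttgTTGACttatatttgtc
ERF1 (chr3:8295367-8295616, plus strand): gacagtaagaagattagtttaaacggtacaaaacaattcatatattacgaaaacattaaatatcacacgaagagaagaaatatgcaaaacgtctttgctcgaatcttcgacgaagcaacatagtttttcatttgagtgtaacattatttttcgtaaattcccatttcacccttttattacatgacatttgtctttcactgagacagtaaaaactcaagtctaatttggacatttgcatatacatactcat
ERF71 (chr2:19503703-19503952, minus strand): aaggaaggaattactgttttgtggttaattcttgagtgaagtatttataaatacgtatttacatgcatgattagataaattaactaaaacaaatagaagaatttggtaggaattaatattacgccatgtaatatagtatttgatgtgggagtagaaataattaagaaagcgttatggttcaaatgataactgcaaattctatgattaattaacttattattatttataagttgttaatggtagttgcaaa
ERF2 and ERF1A share a run of 26 bases, CGCACGTGTTTAATTCACGAACCTTC, which holds the G-box and begins 41 bases before the start in ERF2 and 88 before it in ERF1A. The coding sequences of these genes are 64.7% identical. ERF11 holds a GCC box 28 bases before its start and a W-box core 16 before it. In ERF1 and ERF71 none of these letters occurs in the window. Of the 11 members that rose by at least 5 on the log2 scale with cycloheximide, ERF1, ERF6, ERF104 and ORA47 hold no match. ERF2, ERF1A, ERF5, ERF13, ERF105, ERF11 and ERF109 hold a match. A link between these letters and the rise was not tested. Over the 46 members, the G-box was found upstream of 12 (26.1%), against 6.49% of 27443 promoters of the same length. The GCC box was upstream of 5 members (10.9%, against 1.87%), namely ERF15, ORA59, ERF11, ABR1 and CRF6. The CGCG box was upstream of 5 (10.9%, against 6.87%), the dehydration-responsive element core of 8 (17.4%, against 12%) and the W-box core of 18 (39.1%, against 44.9%).

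Untreated inflorescences held few abundant members. RAP2.12, an oxygen-regulated activator of group VII, was highest at 255 ± 12.1 FPKM (SD, n = 3) and ranked 828 among the 19569 tested loci. RAP2.4, a DREB-type gene known from light and drought responses, followed at 135 ± 4.88, and RAP2.2, the closest relative of RAP2.12 here with 70.1% of its coding bases identical, at 114 ± 1.8. The summed FPKM of all members was 966 to 1029 in the untreated libraries, 7981 to 10630 under cycloheximide and 11010 to 11860 under both compounds. With cycloheximide the order was a different one, led by 6 genes of group IX: ERF105, ERF13, ERF5, ERF104, ERF2 and ERF1A. ERF105 then ranked 173 among tested loci.

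**Figure D1:**
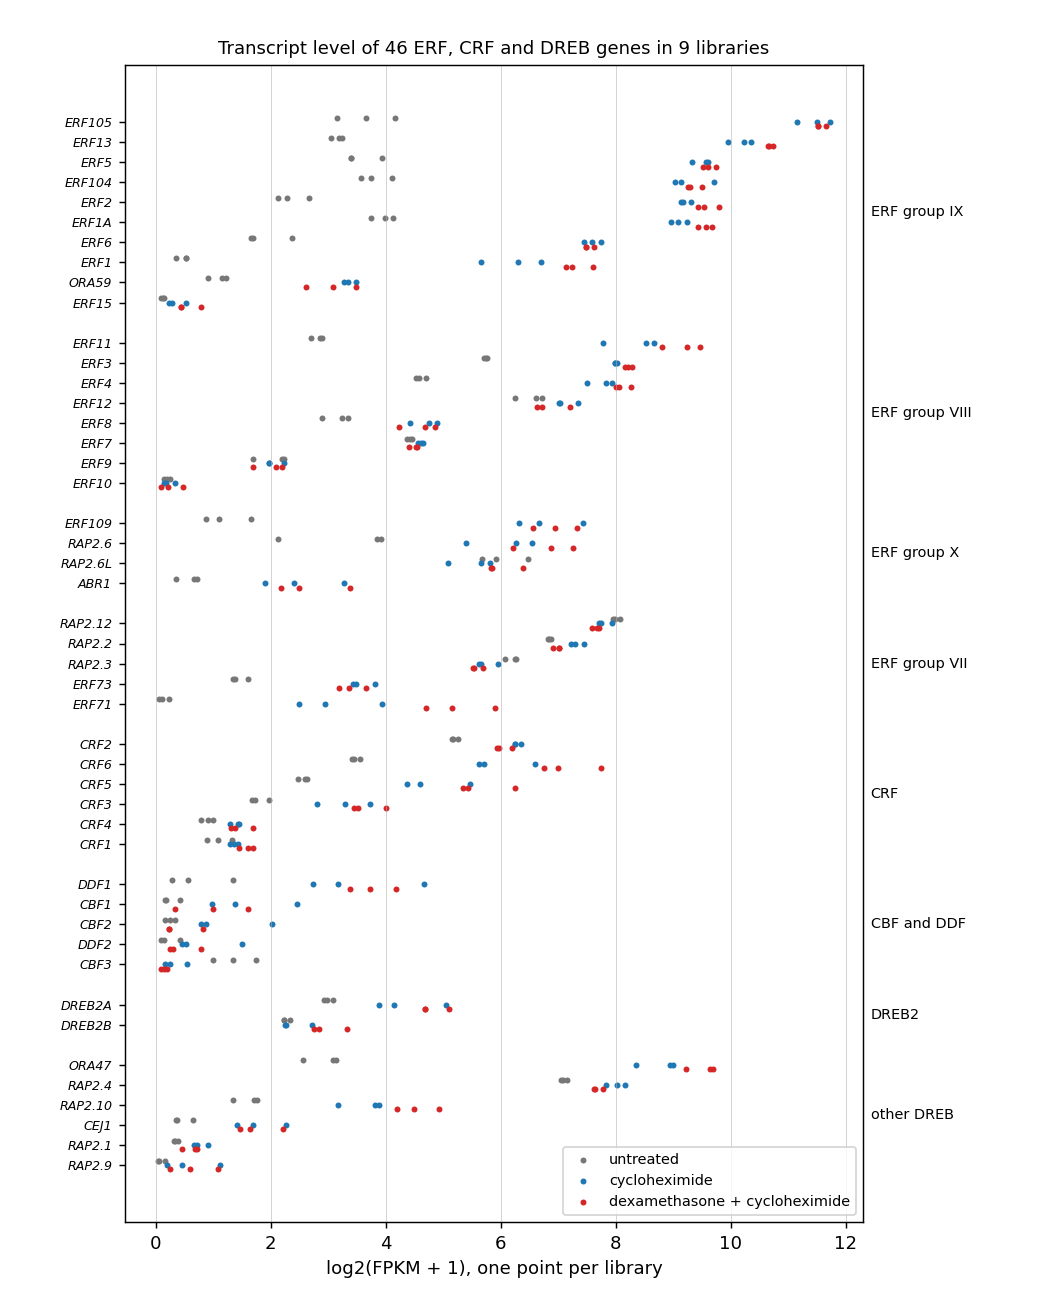
Transcript level of each of the 46 genes in log2(FPKM + 1) on the horizontal axis, with 1 point per library and genes ordered by family group and by their mean with cycloheximide; grey is untreated, blue cycloheximide and red dexamethasone + cycloheximide. ERF105 moves from 7.90 to 16.9 FPKM untreated to at least 2262 FPKM in each treated library, while the groups of ERF9 overlap. RAP2.12 and RAP2.3 move little by comparison, each treated library lying below all untreated ones.

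The comparison of cycloheximide with untreated inflorescences showed a rise of most tested members. Of 39 tested members 34 were called, where 54.7% of all tested loci were, and 33 of them rose, a share of 84.6% where 26.5% of loci rose. RAP2.3 alone fell, where 28.2% of loci fell, and RAP2.6L, RAP2.12, ERF9, DREB2B and CRF1 were not called. The median log2 fold change was 2.13 over the tested members and -0.05 over all tested loci. In 33 of the 39, all 3 cycloheximide libraries lay above all untreated ones, against 30.5% of loci, and in 2 they lay below, against 33.6%. Among the 32 tested members with at least 1 FPKM untreated, 26 rose and 1 fell, and the shares among all loci at that level were not computed. With no filter on low values all 46 members were tested, and 35 rose and 2 fell. In that fit 5443 of 26153 loci rose and 5541 fell. The rise reached at least 5 on the log2 scale in 11 members, while 219 loci (1.12%) in all did so.

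**Figure D2:**
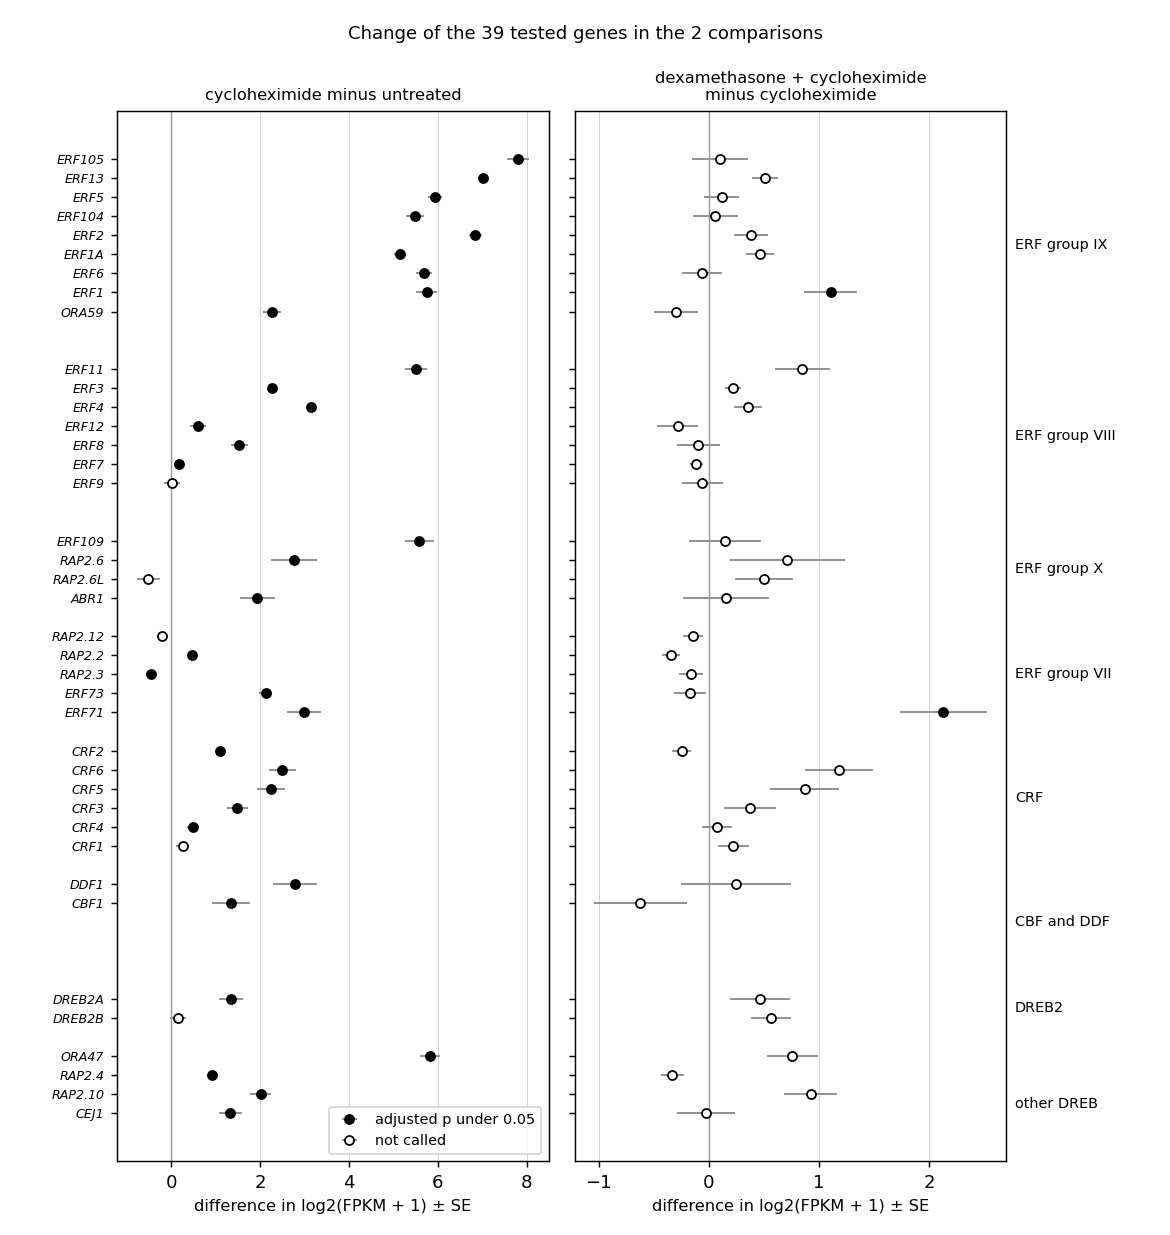
Difference in log2(FPKM + 1) of the 39 tested genes, with bars of 1 SE, for cycloheximide minus untreated on the left and dexamethasone + cycloheximide minus cycloheximide on the right; filled circles passed adjusted p under 0.05 and open circles did not. Group IX genes reach 2.28 to 7.8 on the left, and only ERF1 and ERF71 are filled on the right.

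Group IX, which holds the classical activators of the GCC box, rose throughout: 9 of 9 tested members, where 26.5% of all tested loci rose. The median log2 fold change of the group was 5.75. ERF105 (AT5G51190, chromosome 5, 20800584 to 20801416), a gene known from cold responses, had 7.90, 11.5 and 16.9 FPKM in replicates 1, 2 and 3 of the untreated group, 2262, 2903 and 3365 under cycloheximide and 2921, 2923 and 3210 under both compounds. Its treated libraries lay far above the untreated ones, and the treated groups overlapped. The mean with cycloheximide was 235-fold that of untreated (log2 fold change 7.8 ± 0.25, limma, adjusted p = 3.02e-07), the largest among the members and the rise of rank 25 among all tested loci. ERF13 (AT2G44840, chromosome 2, 18495341 to 18496272) had 8.40, 7.24 and 8.04 FPKM untreated, 993, 1309 and 1193 under cycloheximide and 1600, 1629 and 1705 under both compounds. The 3 groups did not overlap in ERF13, and its rise with cycloheximide was 7.03 ± 0.12 (limma, adjusted p = 6.85e-08). ERF2 (AT5G47220, chromosome 5, 19171862 to 19172823), an activator of defence genes, had 3.37, 3.84 and 5.35 FPKM untreated, 577, 562 and 629 under cycloheximide and 889, 742 and 689 under both compounds. Here too the groups stood apart in order, with a rise of 6.85 ± 0.15 (limma, adjusted p = 9.3e-08).

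The other group IX rises were 5.93 ± 0.16 in ERF5, 5.75 ± 0.24 in ERF1, 5.68 ± 0.18 in ERF6 (whose locus lies inside one on the opposite strand), 5.48 ± 0.20 in ERF104 and 5.14 ± 0.13 in ERF1A. The ERF1A locus lies inside a same-strand locus of 86 genes, at 17.9 to 21.2 FPKM untreated and 62.5 to 92.1 with cycloheximide. How reads were divided between these 2 loci was not tested. ERF5 and ERF6 act in osmotic stress and defence, ERF104 is a target of the mitogen-activated kinase MPK6, and ERF1 is a direct target of the ethylene regulator EIN3. ORA59, which joins ethylene and jasmonate signals at the same defence promoters as ERF1, rose from 1.13 ± 0.24 to 9.3 ± 0.81 FPKM (SD, n = 3), a log2 fold change of 2.28 ± 0.20 (limma, adjusted p = 4.42e-05). ERF15, whose coding sequence is 70% identical to that of ORA59, stayed at 0.0596 to 0.723 FPKM over all libraries and was not tested.

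Group VIII, the repressors with an EAR motif, rose in 6 of 7 tested members with a median of 1.53, where 26.5% of all tested loci rose. ERF11 (AT1G28370, chromosome 1, 9955969 to 9956940), which represses ethylene synthesis genes and interacts with DELLA proteins, had 6.44, 5.46 and 6.21 FPKM untreated, 218, 368 and 403 under cycloheximide and 445, 606 and 706 under both compounds. The treated libraries lay above all untreated ones, and the rise with cycloheximide was 5.51 ± 0.25 (limma, adjusted p = 1.19e-06). ERF4 (AT3G15210, chromosome 3, 5121422 to 5122562), a repressor in ethylene and abscisic acid responses, had 22.9, 22.0 and 25.0 FPKM untreated, 181, 225 and 244 under cycloheximide and 255, 266 and 308 under both compounds. Every treated library lay above the untreated ones, with a rise of 3.15 ± 0.13 (limma, adjusted p = 7.5e-07). ERF3 (AT1G50640, chromosome 1, 18757148 to 18758433) varied little within groups, with 51.5, 52.3 and 53.3 FPKM untreated, 254, 252 and 258 under cycloheximide and 286, 308 and 294 under both compounds. Its 3 groups did not overlap, and the rise with cycloheximide was 2.26 ± 0.07 (limma, adjusted p = 2.69e-07). ERF7, the closest relative of ERF3 among the members with 73.5% of coding bases identical, rose from 20.3 ± 0.66 to 23.3 ± 0.78 FPKM (0.19 ± 0.06, limma, adjusted p = 0.0321), and that call was lost without untreated replicate 1 or 2 and without cycloheximide replicate 2 or 3, with differences of 0.16 to 0.19. ERF8 rose by 1.53 ± 0.19 and ERF12 by 0.60 ± 0.19, the latter not called without untreated replicate 3 (0.47) or without cycloheximide replicate 1 (0.50). ERF9, a repressor of defence genes, had 3.15 ± 0.81 FPKM untreated and 3.16 ± 0.47 with cycloheximide.

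In group X 3 of 4 members rose, where 26.5% of all tested loci did. ERF109 (AT4G34410, chromosome 4, 16451876 to 16453260), listed by RefSeq as RRTF1 and known from redox stress and wounding, had 0.822, 1.15 and 2.16 FPKM untreated, 78.2, 100.4 and 171 under cycloheximide and 92.9, 122 and 160 under both compounds. Its rise was 5.59 ± 0.33 (limma, adjusted p = 4.59e-06), with the treated groups overlapping. RAP2.6 (AT1G43160, chromosome 1, 16263813 to 16264830), a gene of wounding and salt stress, was uneven before treatment, with 13.4, 14.1 and 3.35 FPKM untreated, 41.2, 92.2 and 75.5 under cycloheximide and 72.9, 117 and 152 under both compounds. The rise was 2.77 ± 0.52 (limma, adjusted p = 0.00251), and the lowest treated library still lay above the highest untreated one. ABR1 (AT5G64750, chromosome 5, 25891506 to 25893888), a repressor of abscisic acid responses, had 0.652, 0.588 and 0.281 FPKM untreated, 2.73, 4.31 and 8.65 under cycloheximide and 3.53, 4.63 and 9.32 under both compounds. It rose by 1.94 ± 0.39 (limma, adjusted p = 0.00338), and replicate 3 was the highest library in both treated groups. RAP2.6L, the close relative of RAP2.6 that is known from shoot regeneration, was not called, at 50.3 to 88.3 FPKM untreated and 32.8 to 55.4 with cycloheximide (-0.51 ± 0.27, limma, adjusted p = 0.137). ERF109 and ABR1 overlap loci on the opposite strand by 301 and 109 bp, and the locus of each also lists another gene. The kit named in the labels does not mark strand although the design text speaks of a strand-specific protocol, so reads of such overlaps cannot be assigned with certainty. ERF6 of group IX is touched more: all 1044 bp of its locus lie within an opposite-strand locus of 86 genes, at 17.9 to 21.2 FPKM untreated and 62.5 to 92.1 with cycloheximide. ERF6 itself was at 2.14 to 4.14 and 173 to 213 FPKM, and how its rise divides between the strands was not tested. The locus opposite ERF109 was at 44.4 to 52.0 FPKM untreated and 81.3 to 95.3 with cycloheximide, and the one opposite ABR1 was at 25.6 to 34.1 FPKM in all libraries.

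Group VII is the oxygen-sensing group: its proteins begin with a conserved cysteine that oxygen-dependent enzymes modify, which leads to degradation of the protein in air. The coding starts of the 5 members show this codon. Each line gives the first 30 coding bases on the gene's strand from RefSeq's TAIR10.1 annotation, with the cysteine codon after the start codon in capitals.
ERF71 (chr2:19503461-19503490, minus strand): atgTGTgggggagctatcatttctgatttc
ERF73 (chr1:27241904-27241933, plus strand): atgTGCggaggagctgtaatttccgattac
RAP2.2 (chr3:4738971-4739000, minus strand): atgTGTggaggagctataatctccgatttc
RAP2.12 (chr1:20135242-20135271, plus strand): atgTGTggaggagctataatatccgatttc
RAP2.3 (chr3:5705784-5705813, plus strand): atgTGTggcggtgctattatttccgattat
The capitalised codon stands second in all 5, while 1 further annotated transcript of ERF73 starts downstream without it. FPKM are of the whole locus and do not tell these transcripts apart. All 5 genes have 2 coding exons, as do RAP2.6, RAP2.6L and ABR1, while the other 38 members have 1.

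The members of group VII divided by level. RAP2.12, RAP2.2 and RAP2.3, known as broadly transcribed genes whose proteins are controlled by oxygen, were at 66.5 to 269 FPKM untreated. ERF71 and ERF73, known as HRE2 and HRE1 for their induction by low oxygen, were below 2.05 FPKM. ERF73 (AT1G72360, chromosome 1, 27241807 to 27242827) had 1.53, 1.60 and 2.05 FPKM untreated, 10.2, 9.73 and 13.0 under cycloheximide and 11.5, 9.31 and 8.13 under both compounds. Its rise with cycloheximide was 2.13 ± 0.15 (limma, adjusted p = 1.17e-05), and the treated groups overlapped. ERF71 (AT2G47520, chromosome 2, 19502802 to 19503569) had 0.0836, 0.173 and 0.0439 FPKM untreated, 4.64, 6.65 and 14.4 under cycloheximide and 34.7, 25.0 and 58.8 under both compounds. It rose by 2.99 ± 0.39 with cycloheximide (limma, adjusted p = 0.000375), and all 3 groups were apart. RAP2.2 (AT3G14230, chromosome 3, 4737146 to 4739141) had 112, 114 and 116 FPKM untreated, 173, 148 and 156 under cycloheximide and 128, 128 and 119 under both compounds. That was a rise of 0.48 ± 0.08 with cycloheximide (limma, adjusted p = 0.00163). RAP2.3 fell from 72.4 ± 5.15 to 52.7 ± 6.78 FPKM (-0.46 ± 0.11, limma, adjusted p = 0.00699), and RAP2.12 had 255 ± 12.1 and 222 ± 19.3 FPKM and was not called (-0.20 ± 0.10, limma, adjusted p = 0.105).

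Of the 6 CRF genes, whose proteins act in cytokinin responses and embryo and organ growth, 5 rose, where 26.5% of all tested loci did. CRF6 (AT3G61630, chromosome 3, 22805180 to 22806527), known from oxidative stress and leaf senescence, had 9.94, 10.7 and 9.70 FPKM untreated, 48.2, 51.4 and 95.4 under cycloheximide and 126, 106 and 212 under both compounds. The rise with cycloheximide was 2.5 ± 0.31 (limma, adjusted p = 0.000255), and no group overlapped another. CRF5 (AT2G46310, chromosome 2, 19011503 to 19012857) had 5.15, 5.04 and 4.58 FPKM untreated, 19.6, 23.0 and 43.0 under cycloheximide and 42.3, 39.5 and 74.9 under both compounds. It rose by 2.24 ± 0.31 (limma, adjusted p = 0.000524), and in CRF5 as in CRF6 replicate 3 was highest in both treated groups. CRF3 (AT5G53290, chromosome 5, 21617813 to 21619267) had 2.93, 2.32 and 2.18 FPKM untreated, 6.02, 8.78 and 12.2 under cycloheximide and 10.4, 9.91 and 14.9 under both compounds. Its treated groups overlapped above the untreated one, with a rise of 1.49 ± 0.24 (limma, adjusted p = 0.00106). CRF2, a target of the auxin response factor MONOPTEROS, was the most abundant CRF untreated and rose from 35.5 ± 1.66 to 76.8 ± 3.4 FPKM (1.09 ± 0.09, limma, adjusted p = 2.39e-05). CRF4 rose by 0.49 ± 0.14, a call lost without untreated replicate 1 although the difference was still 0.44 (limma, adjusted p = 0.059), and CRF1 was at 0.843 to 2.23 FPKM over all libraries and was not called.

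The CBF and DDF genes, of the DREB1 type, had low levels, at most 2.34 FPKM untreated. CBF1, CBF2 and CBF3 stand in tandem on chromosome 4 and are the main activators of the cold response, and DDF1 lowers gibberellin levels under salt stress. DDF1 (AT1G12610, chromosome 1, 4289944 to 4291017) had 0.218, 0.470 and 1.54 FPKM untreated, 5.63, 7.99 and 24.3 under cycloheximide and 9.45, 12.2 and 17.2 under both compounds. It rose by 2.79 ± 0.50 (limma, adjusted p = 0.00182), with the treated groups overlapping. CBF1 (AT4G25490, chromosome 4, 13021780 to 13022725) had 0.134, 0.112 and 0.341 FPKM untreated, 1.60, 0.962 and 4.47 under cycloheximide and 0.992, 0.268 and 2.04 under both compounds. The call of CBF1 (1.35 ± 0.42, limma, adjusted p = 0.0248) was lost without untreated replicate 1, without untreated replicate 2 or without cycloheximide replicate 3, where the difference was 1.31, 1.3 and 0.92. CBF2 and CBF3, were too low for the test at the filter used. CBF2 was at 0.120 to 0.256 FPKM untreated and 0.719 to 3.07 with cycloheximide, and CBF3 at 0.994 to 2.34 and 0.122 to 0.453. With no filter on low values CBF2 rose by 0.98 ± 0.33 (limma, adjusted p = 0.0448) and CBF3 fell by 1.05 ± 0.18 on the log2 scale (limma, adjusted p = 0.0026). The coding sequences of the 3 CBF genes are 85% to 86.7% identical, with shared runs of up to 68 bases, so reads may have been divided between them. DDF2 reached 1.82 FPKM at most, and its gene also lies inside assembled loci that span many genes.

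The DREB2 genes, activators in drought and heat, had 1 call between them, a rise, where 26.5% of all tested loci rose. DREB2A (AT5G05410, chromosome 5, 1602205 to 1603926) had 6.62, 7.46 and 6.91 FPKM untreated, 13.7, 16.6 and 32.0 under cycloheximide and 24.6, 24.7 and 33.1 under both compounds. It rose by 1.36 ± 0.27 (limma, adjusted p = 0.00332), all treated libraries being above the untreated ones. DREB2B (AT3G11020, chromosome 3, 3455355 to 3457214) had 3.66, 4.01 and 3.70 FPKM untreated, 3.82, 3.73 and 5.59 under cycloheximide and 6.15, 5.72 and 9.06 under both compounds. Its untreated and cycloheximide libraries overlapped and no change was called (0.15 ± 0.18, limma, adjusted p = 0.502). The difference between DREB2A and DREB2B was not tested.

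Among the remaining DREB genes 4 of 4 tested members rose, where 26.5% of all tested loci did. ORA47 (AT1G74930, chromosome 1, 28144132 to 28145049), an activator of jasmonate synthesis genes, had 7.78, 7.51 and 4.91 FPKM untreated, 324, 507 and 492 under cycloheximide and 596, 825 and 798 under both compounds. The 3 groups did not overlap, and the rise with cycloheximide was 5.83 ± 0.23 (limma, adjusted p = 6.47e-07). RAP2.10 (AT4G36900, chromosome 4, 17388814 to 17389837), also called DEAR4, had 2.38, 2.28 and 1.54 FPKM untreated, 7.94, 13.0 and 13.7 under cycloheximide and 21.6, 17.3 and 29.5 under both compounds. It rose by 2.01 ± 0.24 (limma, adjusted p = 0.000242), again with no overlap between groups. CEJ1 (AT3G50260, chromosome 3, 18634576 to 18635398), a repressor with an EAR motif, had 0.557, 0.296 and 0.277 FPKM untreated, 1.67, 2.21 and 3.82 under cycloheximide and 1.75, 2.1 and 3.61 under both compounds. Its rise was 1.34 ± 0.26 (limma, adjusted p = 0.00304), and the treated groups covered nearly the same range. RAP2.4 rose from 135 ± 4.88 to 257 ± 29.3 FPKM (0.92 ± 0.10, limma, adjusted p = 0.000171), while RAP2.1 and RAP2.9 stayed below 1.17 FPKM.

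Members that are neighbours on a chromosome did not all move alike. ERF2 and ERF5 stand head to head on chromosome 5, 7115 bp apart with 1 coding gene between them, and their respective paralogs ERF1A and ERF6 stand head to head on chromosome 4, 5457 bp apart with none between. All 4 rose, by 6.85, 5.93, 5.14 and 5.68 in the order named. ERF12 and ERF11 stand tail to tail on chromosome 1, 3228 bp apart. ERF12 was at 91.9 ± 14.9 FPKM untreated and 140 ± 18.1 with cycloheximide, and ERF11 went from 6.04 ± 0.52 to 330 ± 98.2, so the order of the pair was turned. These differences between neighbours were not tested.

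**Figure D3:**
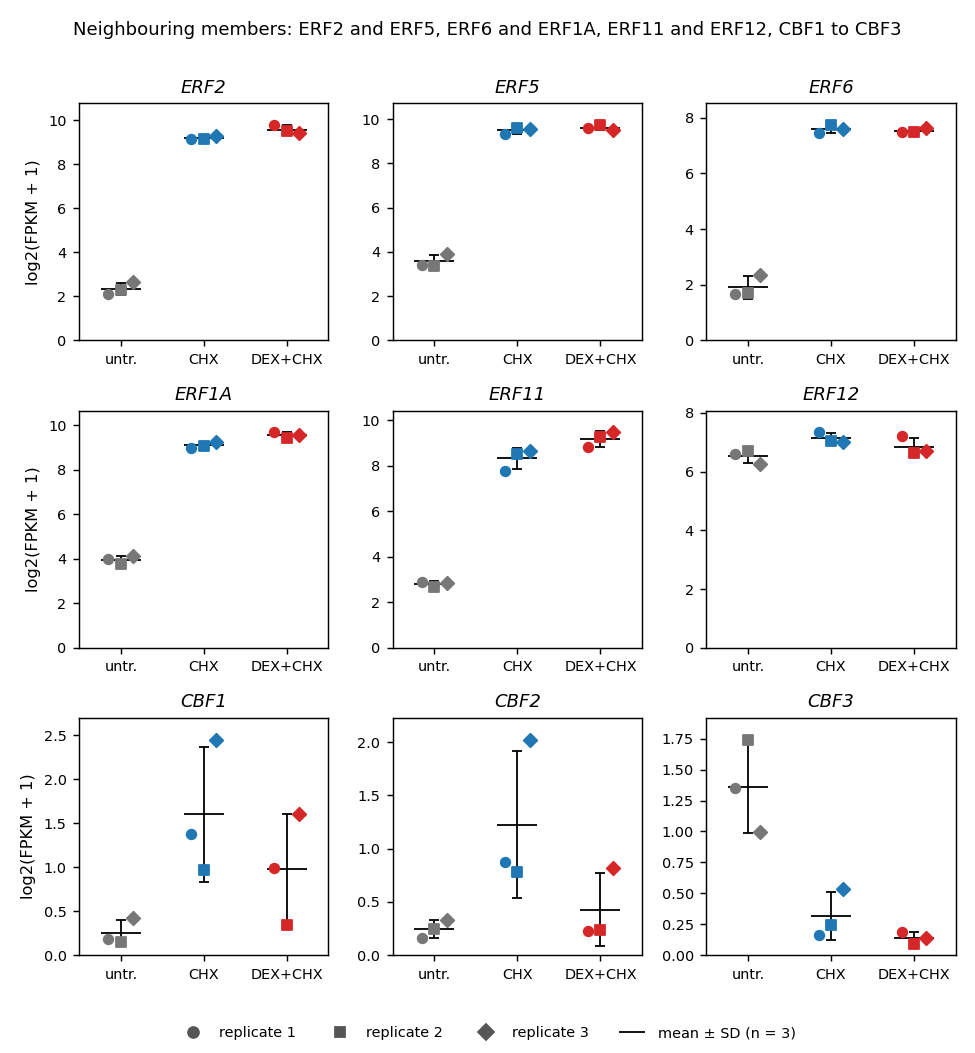
Level in log2(FPKM + 1) of 9 neighbouring members in untreated (untr.), cycloheximide (CHX) and dexamethasone + cycloheximide (DEX+CHX) libraries; symbols mark the replicate number, and bars the mean ± SD of 3 libraries. ERF2, ERF5, ERF6 and ERF1A lie above 7 in every treated library, ERF12 between 6 and 8 in all 9 libraries, and CBF3 lies highest untreated, unlike CBF1 and CBF2.

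The comparison of dexamethasone + cycloheximide with cycloheximide called few members. ERF71 and ERF1 rose, 2 of 39 tested members (5.13%), where 3.69% of all tested loci were called and 1.91% rose. Both were below 1 FPKM untreated and passed the filter through the treated groups. Among the 32 tested members with at least 1 FPKM untreated, 0 were called, too few members to set this apart from the 3.69% of all tested loci. The share among all loci with at least 1 FPKM untreated was not computed. No member fell by limma, where 1.78% of loci fell, and at an unadjusted p under 0.05 there were 13 members higher and 3 lower, among loci 13.3% and 9.85%. The median log2 fold change was 0.15 over the members and 0.01 over all loci. In 14 members (35.9%) the 3 libraries under both compounds lay above the 3 with cycloheximide, against 14.4% of loci, and in 5 they lay below, against 11%. This comparison and that with untreated share the cycloheximide libraries, so a low value there raises one difference and lowers the other.

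ERF71 had the largest difference among the members, 2.13 ± 0.39 (limma, adjusted p = 0.0355). Its libraries under both compounds, at 25.0 to 58.8 FPKM, all lay above those with cycloheximide, at 4.64 to 14.4, and the means stood 4.62-fold apart. In ERF1 (AT3G23240, chromosome 3, 8295644 to 8296604) the libraries had 0.442, 0.435 and 0.273 FPKM untreated, 49.5, 77.2 and 103 under cycloheximide and 150, 139 and 193 under both compounds. The groups did not overlap, and the difference between the treated groups was 1.11 ± 0.24 (limma, adjusted p = 0.0488). Neither call was stable: with only the 6 libraries compared in the fit there was no called member (limma, adjusted p = 0.107 for ERF71 and 0.136 for ERF1). Among 9 fits that each left out a library, ERF71 was called in those without cycloheximide replicate 3 and without dexamethasone + cycloheximide replicate 2, and ERF1 only in the first of these. Over these 9 fits the difference ranged from 1.8 to 2.54 in ERF71 and from 0.83 to 1.35 in ERF1. With no filter on low values, which lets all 46 members into the test, ERF71 rose and RAP2.2 fell, and ERF1 was not called (limma, adjusted p = 0.068). The count over all loci was as unstable, at 20 to 772 rises and 49 to 476 falls over the 9 fits, so the share called among all loci moves with the library left out.

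Replicate number moved with these values. Replicate 3 was the highest library in both treated groups for 19 of the 39 tested members (48.7%), against 16.0% of all tested loci, and replicate 1 was the lowest cycloheximide library for 26 members, against 36.6% of loci. Same-numbered treated libraries deviated together over all loci, with r of 0.353, 0.131 and 0.213 for replicates 1, 2 and 3, against at most 0.113 between different numbers. When the fit of 9 libraries took the number as a replicate block, CRF6 was called besides ERF71 and ERF1 (limma, adjusted p = 0.0453). With the block on only the 6 libraries compared, a fit added after seeing the data, 7 members rose: ERF71, CRF6, CRF5, DREB2B, ERF11, ORA47 and ERF1 (limma, adjusted p from 0.0272 to 0.045). That fit called 1024 loci higher and 520 lower in all, against 14 and 27 in the fit of the same 6 libraries without the block. Leaving out cycloheximide replicate 3 gave 5 called members, ERF71, ERF1, CRF6, CRF5 and DREB2A, while 772 of all 19569 tested loci rose and 476 fell.

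**Figure D4:**
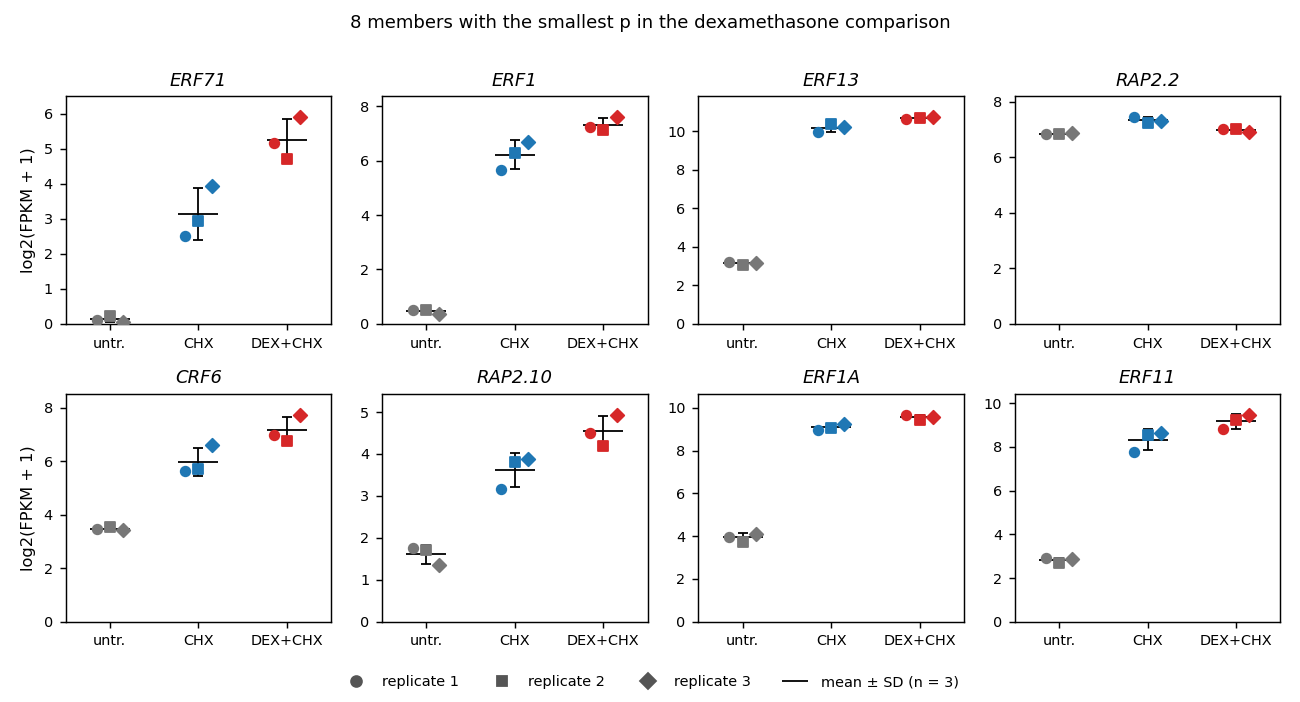
Level in log2(FPKM + 1) of the 8 members with the smallest p in the dexamethasone comparison, by group (untr. untreated, CHX cycloheximide, DEX+CHX both compounds); symbols mark the replicate number and bars the mean ± SD of 3 libraries. In ERF71, ERF1, CRF6, RAP2.10 and ERF11 replicate 3 is highest in both treated groups, and only RAP2.2 lies lower under both compounds than with cycloheximide.

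Members that missed the threshold lay on both sides. CRF6 was 1.18 ± 0.31 higher under both compounds (limma, adjusted p = 0.0697), RAP2.10 0.92 ± 0.24 higher (limma, adjusted p = 0.0733) and ERF11 0.85 ± 0.25 higher (limma, adjusted p = 0.0902). ERF13 and ERF1A, with small spread, were 0.51 ± 0.12 and 0.46 ± 0.13 higher (limma, adjusted p = 0.0571 and 0.0805). The members whose libraries under both compounds all lay below were RAP2.2, RAP2.4, CRF2, ERF7 and RAP2.12, with 114, 135, 35.5, 20.3 and 255 FPKM untreated in this order. RAP2.2 was -0.34 ± 0.08 (limma, adjusted p = 0.0601), which passed with no filter on low values (limma, adjusted p = 0.0491), and RAP2.4 was -0.33 ± 0.10 (limma, adjusted p = 0.107). ERF105, ERF104, ERF5 and ERF6, among the strongest rises with cycloheximide, differed by 0.10, 0.06, 0.12 and -0.06 between the treated groups, with overlapping libraries and an SE of 0.16 to 0.25. In CBF1 the difference was -0.62 ± 0.42 (limma, adjusted p = 0.42).

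The 5 loci of a single gene whose pattern over the 9 libraries was most like that of ERF71, by Pearson's r of log2(FPKM + 1), were AT2G23270, AT3G10986, SAUR74 (AT3G12955), GASA3 (AT4G09600) and SAUR21 (AT5G01830), with r of 0.996 to 0.997. The 9 libraries share the 3 group levels, and r is given as a description. AT2G23270 was at 0 in all untreated libraries, at 5.67 to 18.6 FPKM with cycloheximide and at 30.7 to 68.9 under both compounds. GASA3, of a family of gibberellin-regulated peptides, was at 0 to 0.138, 2.08 to 4.83 and 6.02 to 9.13 FPKM, and SAUR74, an auxin-responsive gene, at 0 to 0.202, 2.66 to 10.4 and 13.5 to 27.7.

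Ethylene signalling genes upstream of the ERF genes were tested in the same fit. Of 12 tested genes 5 rose and 3 fell with cycloheximide, where 26.5% and 28.2% of all tested loci did, with a median log2 fold change of 0.02 against -0.05 over all loci. The share that fell lies near that of all loci. The receptor genes ETR1 and EIN4 rose by 0.52 ± 0.06 and 0.39 ± 0.07 (limma, adjusted p = 0.000242 and 0.00275), the locus of ETR1 also holding another gene. RTE1, which promotes ETR1 activity, fell by 0.44 on the log2 scale and the transcription factor gene EIL1 by 0.33 (limma, adjusted p = 0.00137 and 0.00314). With dexamethasone 1 of the 12 was called: EBF1, an F-box gene whose protein targets EIN3 for degradation, had 59.6, 68.1 and 59.0 FPKM untreated, 58.4, 57.7 and 44.9 under cycloheximide and 32.5, 36.2 and 35.0 under both compounds. The last group lay below the others, a fall of -0.61 ± 0.11 (limma, adjusted p = 0.0362). Of all tested loci 1.78% fell with dexamethasone. Only members were followed through the alternative fits, so the stability of the EBF1 call was not tested. RTE1 was next by p, at -0.31 ± 0.07 (limma, adjusted p = 0.0612).

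Genes known to be activated by ERF1 and ORA59 through the GCC box were near 0 or low. Protein synthesis was blocked in all treated libraries, so target levels there cannot show what the risen member transcripts would do. The same limit holds for the oxygen response list and the CBF and DREB2A targets below. The defensin genes PDF1.2 and PDF1.3 were listed at 0 in all 9 libraries, PDF1.2B in 8 of 9, and PR4 was at 0.202 to 1.71 FPKM. PR3, a chitinase gene at a locus shared with another gene, was the 1 of 5 tested and fell with cycloheximide, from 1.78 to 3.03 FPKM untreated to 0.776 to 1.57 (-0.67 ± 0.20, limma, adjusted p = 0.0202).

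The oxygen response list of group VII held 11 genes, of which 9 were tested, and 4 rose and 3 fell with cycloheximide, where 26.5% and 28.2% of all tested loci did, the falls being close to that share. PDC1, a pyruvate decarboxylase gene of fermentation, had 0.128, 0.225 and 0.128 FPKM untreated, 3.16, 3.86 and 6.45 under cycloheximide and 10.4, 10.04 and 10.5 under both compounds. The 3 groups did not overlap, and PDC1 was the 1 call of the list in both directions with dexamethasone, a rise of 1.09 ± 0.19 (limma, adjusted p = 0.0323) after one of 2.2 ± 0.19 with cycloheximide (limma, adjusted p = 4.11e-05). Of all tested loci 1.91% rose with dexamethasone, and the stability of the PDC1 call was not tested. The PDC1 locus also overlaps one on the opposite strand, whose part in the reads was not tested. HB1, a haemoglobin gene, rose with cycloheximide by 2.92 ± 0.29 (limma, adjusted p = 8.3e-05). PDC2, the second pyruvate decarboxylase gene, and LBD41, a transcription factor gene of the low-oxygen response, fell by 0.94 and 1.64 on the log2 scale (limma, adjusted p = 0.000101 and 0.000209). ADH1, alcohol dehydrogenase, at a locus shared with another gene, was 0.30 ± 0.07 higher with dexamethasone and not called (limma, adjusted p = 0.052).

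Of 8 tested regulators of the CBF genes 4 rose and 1 fell with cycloheximide, against the same 26.5% and 28.2% of loci. MYB15, a repressor of the CBF genes, rose by 6.64 ± 0.35, from 3.55 to 8.25 FPKM untreated to 418 to 937. ZAT12, a zinc finger gene, rose by 5.95 ± 0.22, and the calmodulin-binding activator genes CAMTA3 and CAMTA2 by 2.39 ± 0.23 and 1.41 ± 0.15 (limma, adjusted p from 5.31e-07 to 0.000134 over these 4). The CAMTA3 locus also lists another gene and overlaps 2 further loci. None of the 8 regulators was called with dexamethasone by limma. The smallest p were those of ZAT12 (0.81 ± 0.22, limma, adjusted p = 0.0778) and ICE2 (-0.34 ± 0.16, limma, adjusted p = 0.23).

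Among targets of CBF proteins and DREB2A 6 of 8 loci were tested, COR15A and COR15B sharing a locus as KIN1 and KIN2 do. With protein synthesis blocked, their levels in the treated libraries do not measure an effect of newly made CBF or DREB2A transcripts. With cycloheximide 4 rose and 1 fell, where 26.5% and 28.2% of all tested loci did. HSFA3, a heat shock factor gene directly activated by DREB2A, rose by 1.32 ± 0.18, and the dehydrin genes COR47 and ERD10 by 1.27 ± 0.32 and 0.90 ± 0.18 (limma, adjusted p = 0.000453, 0.00942 and 0.00372). The COR15A and COR15B locus, of chloroplast proteins of the cold response, fell from 49.3 to 75.5 FPKM untreated to 15.7 to 22.7 (-1.66 ± 0.21, limma, adjusted p = 0.000313). With dexamethasone RD29A, a drought and cold marker gene, fell from 12.3 to 25.8 FPKM with cycloheximide to 6.70 to 9.18 under both compounds (-1.26 ± 0.27, limma, adjusted p = 0.0479). It was the 1 call among the 6, where 1.78% of all tested loci fell, and the stability of this call was not tested. ERD10 was next by p, at -0.74 ± 0.18 (limma, adjusted p = 0.0652), and the median of the 6 loci was -0.76, against 0.01 over all tested loci.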

How the data were processed

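TopHat, Cufflinks, Cuffdiff and the TAIR10 build are named in the authors' notes, per the submitters' processing notes, with versions not given in the sources used here. Values of 33871 assembled loci were deposited as FPKM, scaled by the authors by locus length and library total, with a status per locus and library. A few abundant loci can therefore lower all others of a library. Absolute depth is unknown.

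Loci with status OK in all 9 libraries (77 lacked it) and a mean of at least 1 FPKM were tested, 19569 in all. Limma 3.58.1 in R 4.3.3 was run on log2(FPKM + 1) with an intensity trend, all 9 libraries together, 6 residual degrees of freedom and Benjamini-Hochberg adjustment, and was tested on simulated data. Python 3.11.15 with pandas 2.3.3 and matplotlib 3.10.9 made the tables and figures. Within a group r between libraries was 0.953 to 0.980.

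The members, gene lists and tests were chosen with earlier results of these data known. All members may be named. Values in every library were given for members called with dexamethasone and for the 3 tested members of each group with the largest change with cycloheximide, and lists by up to 4 called genes with the smallest p, or the 2 with the smallest p. The rule of taking the longest locus on the gene's strand placed ERF1A and DDF2 in loci of 285837 and 285378 bp, so loci of 50000 bp and above were passed over. Of the 46 members 46 matched the reference by identifier and 44 by symbol.

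Replicate numbers are shared in the labels. Same-numbered treated libraries correlated with r over 0.1 in all 3 pairs (0.353, 0.131 and 0.213, the highest between different numbers being 0.113). The main fit did not use this pairing, which entered only through the replicate block among the alternatives. Such pairing comes from the data and not from a stated design. Against untreated libraries r was 0.0391, 0.0319 and 0.108, and those numbers were not taken to pair. Alternatives were the pseudocount, filters, rescaling, fewer libraries, the block and leaving out each library.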

Additional observations from a re-analysis of the deposited data

How the results depend on the processing

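With cycloheximide the number of called members was 34 and lay between 31 and 34 when 1 library was left out, at 30 with a mean of at least 5 FPKM, at 37 with no filter, at 34 with the replicate block and at 32 with the block on 6 libraries. Calls of CBF1, CRF4, ERF12 and ERF7 were lost when 1 library was left out, those of CRF4 and ERF7 also with the block on 6 libraries, and ABR1, CEJ1, CBF1 and CRF4 were not tested at a mean of at least 5 FPKM. With dexamethasone the count of 2 members was 0 with only the 6 libraries compared, and 1 with a pseudocount of 0.1, with median-of-ratios rescaling and without an intensity trend. With no filter it was again 2, but ERF71 higher and RAP2.2 lower, ERF1 not being called. It was 3 with the replicate block, 3 without loci below 300 bp, 2 with a mean of at least 5 FPKM and 7 with the block on 6 libraries. It ranged from 0 to 5 when 1 library was left out: 5 without cycloheximide replicate 3, 1 without dexamethasone + cycloheximide replicate 2 and 0 in the other 7 fits. Over all loci the dexamethasone calls were 374 higher and 349 lower, against 14 and 27 with 6 libraries and 635 and 467 with the replicate block, and the cause was not tested. Taking the longest locus for every member, added after seeing the data as was the block on 6 libraries, left 34 and 2 members called. Rescaling moved the median of all loci from -0.05 to 0.01 with cycloheximide. Some members that were not called turned direction when 1 library was left out. Their log2 fold changes with cycloheximide ranged from -0.0044 to 0.23 in DREB2B and from -0.15 to 0.11 in ERF9. With dexamethasone they ranged from -0.19 to 0.53 in ABR1, -0.24 to 0.21 in CEJ1, -0.041 to 0.15 in CRF4, -0.15 to 0.82 in DDF1, -0.069 to 0.26 in ERF104, -0.052 to 0.23 in ERF105, -0.1 to 0.46 in ERF109, -0.13 to 0.018 in ERF6, -0.23 to 0.082 in ERF8 and -0.16 to 0.091 in ERF9. Depth is unknown in absolute terms, and the lowest members, such as CBF1 to CBF3, rest on few reads.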
